A study of Homo sapiens with 2 samples.

Results

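RAB proteins are small GTPases that mark the membranes of the vesicle traffic system. Bound to GTP they recruit effectors that form, move, tether and fuse vesicles. Guanine nucleotide exchange factors load the GTP, GTPase-activating proteins end the active state, and prenyl groups at the C terminus anchor RAB proteins to membranes. In a colon epithelial cell they carry newly made proteins from the endoplasmic reticulum (ER) through the Golgi to the surface, and take surface proteins in, return them or send them to lysosomes.

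The genes described here are the protein-coding genes with a symbol made of RAB, a number and at most the letters A to D or AL, which leaves out pseudogenes and effectors such as RAB11FIP1. The array held 63 of them among 17687 named genes, each with a single probe set. They were chosen by name, but with the differences of these arrays already known, so every value below is a description. They were sorted by their best known site of action into 6 groups: early endosomes, late endosomes and lysosomes, recycling, ER and Golgi, secretion, and a group for the cilium and other roles. Many RAB proteins act at several sites, so these groups are a simplification. RAB4B, a recycling RAB of the starting list, was not analysed here.

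The cells were SW48, an established human colorectal cancer line. The siControl culture received the AllStars negative control siRNA. The siYY1 culture received a single siRNA sequence, Hs_YY1_1, against YY1, a zinc finger transcription factor. Both siRNAs were given at 5 nmol/L by lipid transfection, RNA was isolated on day 3, and each culture gave 1 whole-transcript array. Because each group has only 1 array, replicate error is unknown, no test could be made, and none of the values below was checked in a replicate. A single siRNA sequence also cannot separate loss of YY1 from its effects on other transcripts, and the level of YY1 was not analysed here.

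Values are log2 values per gene, and differences are siYY1 minus siControl, so 1.5-fold corresponds to 0.585 either way. Genes were called kept when their mean over both arrays reached 7.54, the middle value over the named genes, and 8844 genes passed. Of the 8844 kept genes, 3.04% were higher in siYY1 by 1.5-fold or more, 3.78% were lower by as much, and 50.4% had a difference above 0. Of 10 epithelial markers, 7 were kept, among them EPCAM (16.04 and 16.24 in siControl and siYY1) and CDH1 (13.55 and 13.57), while VIL1, CDX1 and LGALS4 were not. None of 20 fibroblast, leukocyte, endothelial and neuron markers was kept, and their values ran from 3.01 to 6.06. In RNA from a whole culture, a change in the share of cells and a change in RNA per cell cannot be told apart.

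Of the 63 RAB genes, 42 were kept, and all 42 lay above the filter value on both arrays. The other 21 were dim, with no value above 7.15, and were not shown to be above background. Past 1.5-fold, 3 kept RAB genes were higher in siYY1 (7.14%, beside 3.04% of all kept genes), and 0 were lower, beside 3.78%. With no filter the counts were 3 and 1 of 63 (4.76% and 1.59%), beside 3.98% and 3.9% of all named genes. At 1.3-fold the counts were 7 higher, beside 9.16% of all kept genes, and 1 lower, beside 10.4%. By any amount, 27 of the 42 were higher, beside 50.4% of all kept genes, and 15 were lower, and their median difference was 0.09, against 0.00 for all kept genes. Over all 63 the split was 39 higher, beside 52% of all named genes, and 24 lower, with a median of 0.08 against 0.01 for all named genes. The median size of a difference regardless of sign was 0.17 for kept RAB genes and 0.18 for all kept genes. By this median size, RAB genes differed between these arrays about as much as other genes did.

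**Figure D1:**
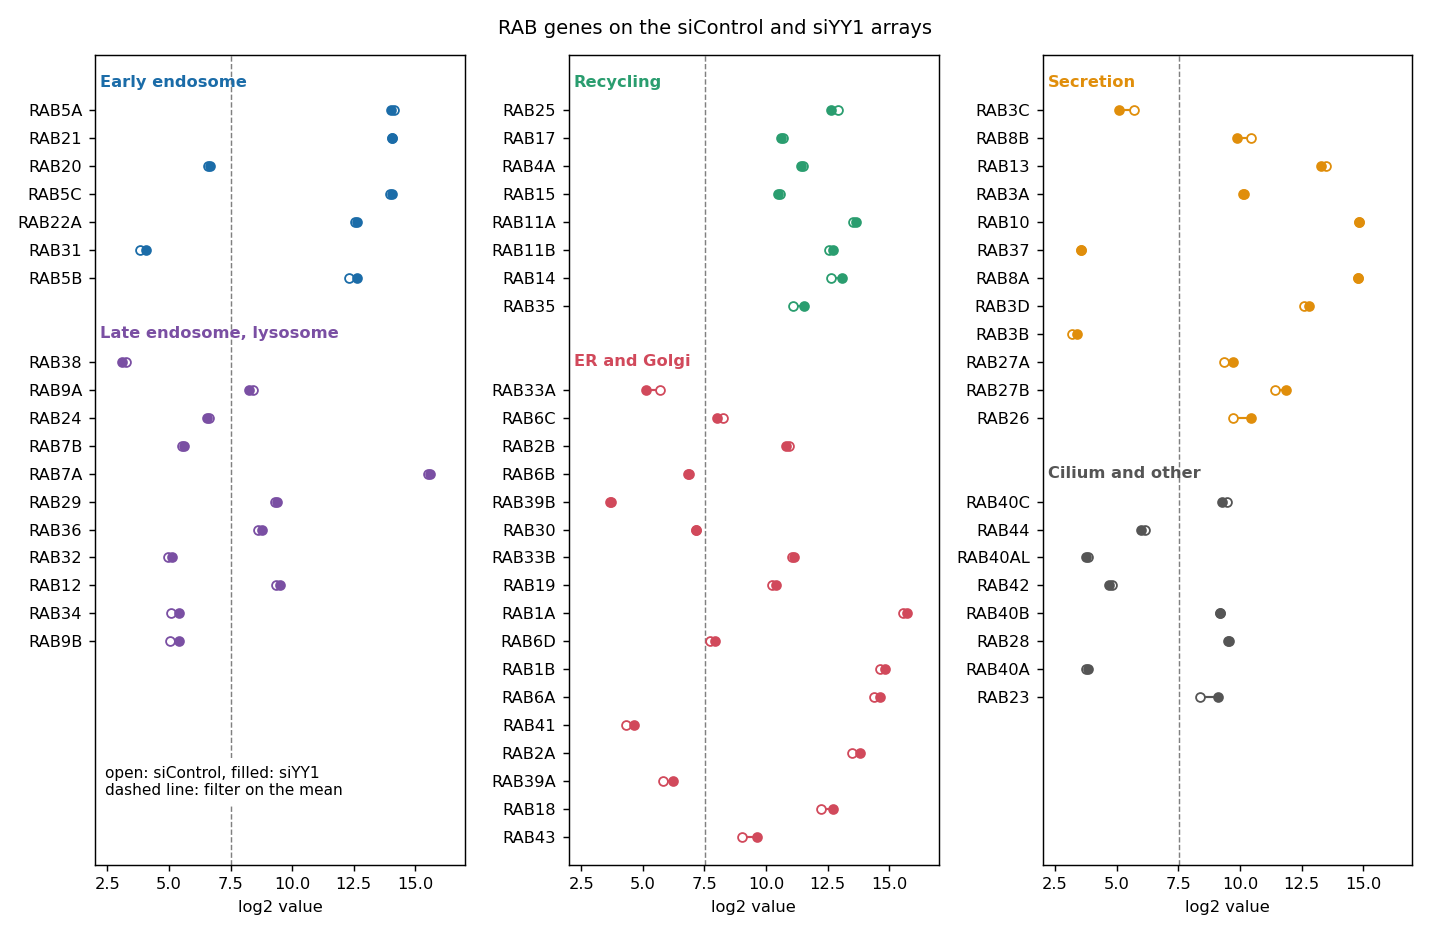
Log2 values (horizontal axis) of the 63 RAB genes by role, with open circles for siControl, filled circles for siYY1 and a dashed line at the filter value of 7.54. Most circles nearly coincide, and the widest gaps among kept genes are those of RAB26, RAB23, RAB43 and RAB8B.

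The largest difference was that of RAB26, a RAB of secretory granules in regulated exocytosis. It measured 9.70 in siControl and 10.45 in siYY1, which is 0.75 or 1.68-fold higher. RAB23, which restrains Hedgehog signalling at the primary cilium, measured 8.38 and 9.11, a difference of 0.72 or 1.65-fold higher. RAB43, which acts at the Golgi, measured 9.01 and 9.64, a difference of 0.63 or 1.55-fold higher. These 3 genes belong to separate role groups and all were higher in siYY1. Such differences were not rare on these arrays, since 110 kept genes had a larger positive difference than RAB26, 128 a larger one than RAB23 and 209 a larger one than RAB43. At the other end, RAB8B measured 10.46 in siControl and 9.88 in siYY1. Its difference of -0.583 lay just short of the threshold, and 337 kept genes had a lower one.

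**Figure D2:**
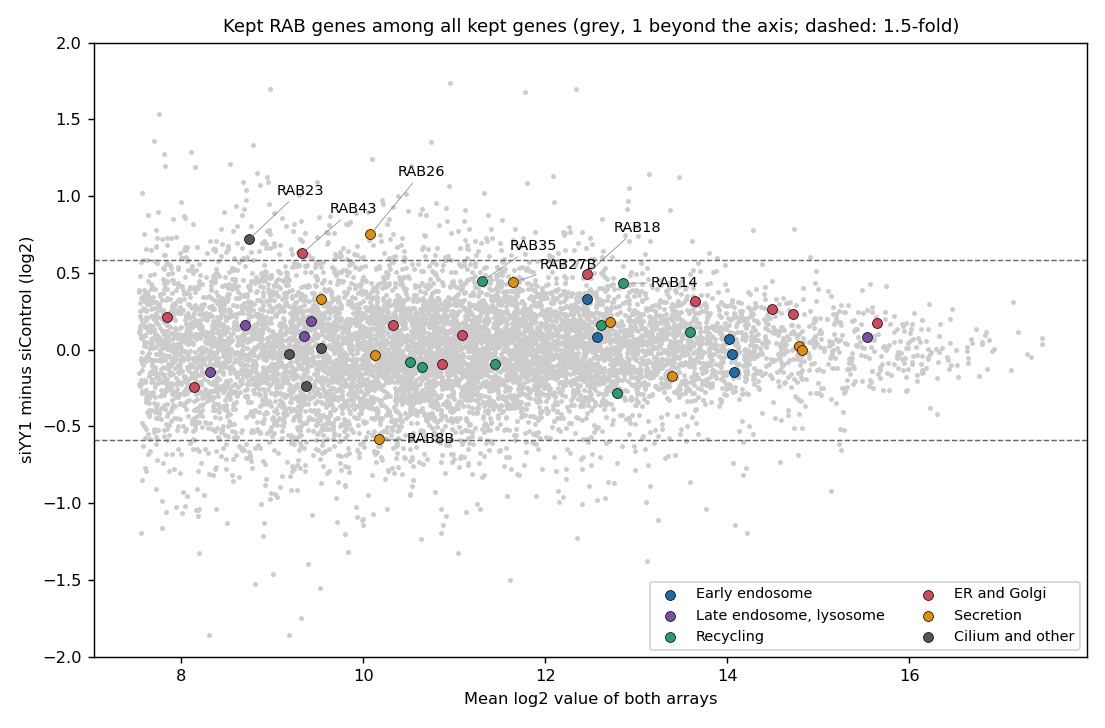
Difference of siYY1 minus siControl against the mean log2 value for all 8844 kept genes (grey points, 1 beyond the axis) and for the 42 kept RAB genes, coloured by role. RAB26, RAB23 and RAB43 lie above the upper dashed line at 1.5-fold, RAB8B lies at the lower line, and the remaining RAB genes lie between the lines.

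RAB genes of the ER and Golgi had the highest median of the 6 role groups. Of 11 kept, 9 were higher in siYY1 (81.8%, beside 50.4% of all kept genes) and 2 lower, with a median difference of 0.21. Among all 17 measured, 12 were higher, beside 52% of all named genes, and 5 lower, with a median of 0.17. Only RAB43 passed 1.5-fold (9.09%, beside 3.04% of all kept genes), and the other differences were small. With 1 array per group they cannot be told from scatter.

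RAB1A and RAB1B drive vesicle transport from the ER to the Golgi. RAB1A measured 15.55 in siControl and 15.73 in siYY1 (difference 0.17), and RAB1B 14.61 and 14.84 (0.23). RAB2A, which acts between the Golgi, the ER and late endosomes, measured 13.48 and 13.80 (0.32). The RAB2 paralogs differed in sign, with RAB2B at 10.91 and 10.82 (-0.09). RAB6A, the RAB of traffic within the Golgi and back to the ER, measured 14.36 and 14.63 (0.27). RAB18, an ER and lipid droplet RAB, measured 12.21 and 12.70, and its difference of 0.49 was the second highest of the group after RAB43. RAB1A, RAB1B, RAB2A, RAB6A and RAB18 were thus all higher on the siYY1 array, by 1.13-fold in RAB1A to 1.41-fold in RAB18.

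RAB6C and RAB6D are near-identical retrogene copies related to RAB6A, so their probe sets may not separate them. RAB6C measured 8.26 and 8.02 (-0.25), the lowest difference of the kept genes of this group, and RAB6D measured 7.73 and 7.95 (0.21). Their opposite signs are uncertain for that reason. RAB33B, a Golgi RAB that binds the autophagy protein ATG16L1, differed by 0.10, and RAB19 by 0.16. The 6 dim members were RAB6B, RAB30, RAB33A, RAB39A, RAB39B and RAB41. Of these, RAB33A was the lowest (5.69 and 5.14, -0.55) and RAB39A the highest (5.81 and 6.23, 0.43), both in the range where probe sets were not shown to be above background.

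**Figure D3:**
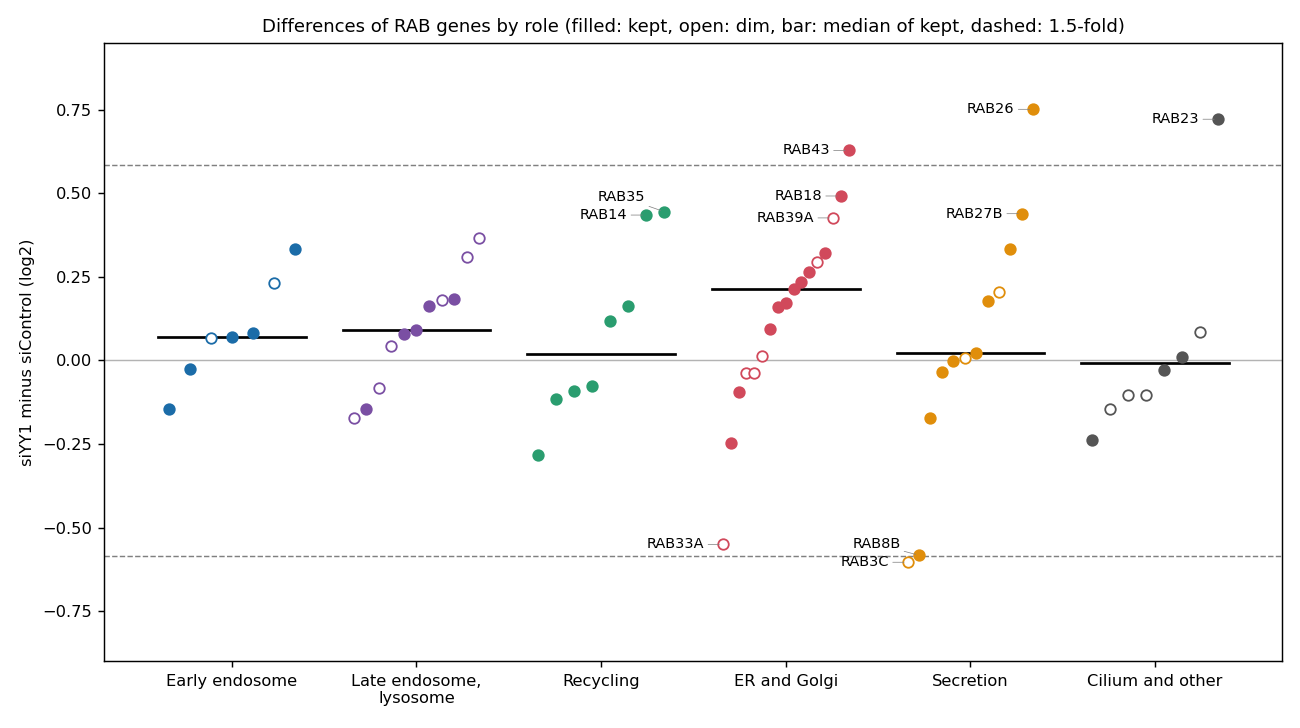
Difference of siYY1 minus siControl (log2) for each RAB gene by role group, with filled points for kept genes, open points for dim genes and a bar at the median of the kept genes. The ER and Golgi group has the highest bar at 0.21, the other bars lie between -0.01 and 0.09, and the 3 points above the upper 1.5-fold line fall in separate groups.

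RAB genes of secretion spread the most, and held both the highest and the lowest difference of the kept RAB genes, those of RAB26 and RAB8B. Of 9 kept, 5 were higher in siYY1, beside 50.4% of all kept genes, and 4 lower, with a median of 0.02. RAB27A and RAB27B, which dock secretory and exosome-carrying organelles at the plasma membrane, were both higher. RAB27A measured 9.37 and 9.70 (0.33), and RAB27B 11.42 and 11.86 (0.44). RAB3D, a RAB of exocrine granules, measured 12.62 and 12.80 (0.18), and its paralog RAB3A 10.15 and 10.11 (-0.03).

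RAB10, which carries cargo to the basolateral membrane and the glucose transporter GLUT4 to the surface, measured 14.82 on both arrays. RAB8A, which carries Golgi cargo to the surface and the cilium, measured 14.78 and 14.80 (0.02). RAB13, a RAB of tight junction traffic, measured 13.48 and 13.31 (-0.17). The dim members were RAB3B (0.20), RAB3C (-0.60) and RAB37 (0.01). RAB3C, at 5.70 and 5.10, was the 1 RAB gene past 1.5-fold on the low side when no filter was applied.

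The RAB8 paralogs had the widest gap of any paralog group with several kept members, 0.60 between RAB8A and RAB8B, followed by 0.51 in the RAB6 group, which includes the near-identical copies, and 0.48 in the RAB5 group. By contrast the gap was 0.06 between RAB1A and RAB1B and 0.11 between RAB27A and RAB27B.

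Because the siRNA was directed at a transcription factor, promoters were searched for AANATGGC, a core of the YY1 recognition motif, on both strands. Promoter sequences were those of RefSeq on GRCh38.p14, from 250 bases before to 50 bases after each annotated start, and 50 of the 63 RAB genes had at least 1. The motif lay in 9 of these 50 genes (18%), beside 7.97% of all 27305 genes in the table and 14.0% of the 7462 kept genes with a promoter there. Counted by promoter, it lay in 12.7% of the 71 of RAB genes and in 6.58% of all 35116 of this length. The 30 bases around each match are shown because they include both RAB8 paralogs, which carry the motif at nearly the same distance from the start, 10 bases after it in RAB8A and 16 in RAB8B. Each is written 5′ to 3′ on the gene's strand, with the match in capitals. In RAB14, RAB9A and RAB41 the capitals show the reverse complement.
RAB8B (chr15:63189612-63189641, plus strand): ccggagcgagAAGATGGCgaagacgtacga
RAB8A (chr19:16111889-16111918, plus strand): gagagagtgtAATATGGCgaagacctacga
RAB22A (chr20:58309726-58309755, plus strand): ccggcgtcccAAGATGGCggcggcggcggc
RAB28 (chr4:13484300-13484329, minus strand): ggaggtgggcAAGATGGCgcttgccgagtg
RAB14 (chr9:121201853-121201882, minus strand): agggagcgccGCCATCTTggaccagcccga
RAB9A (chrX:13689115-13689144, plus strand): ccggcccgtcGCCATGTTgttccctccgcg
RAB7A (chr3:128725953-128725982, plus strand): ctgtgggtccAACATGGCgccgtcctgctc
RAB30 (chr11:83072082-83072111, minus strand): cagtactcctAACATGGCggccgagtcccc
RAB41 (chrX:70282179-70282208, plus strand): agcgttggaaGCCATTTTggctgcaaccta

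The match lay on the gene's own strand in 6 of the 9 genes and on the opposite strand in 3. Of the 9 genes, 7 were kept, and their differences ran from -0.58 in RAB8B through -0.15 in RAB9A, 0.01 in RAB28, 0.02 in RAB8A and 0.08 in both RAB7A and RAB22A to 0.43 in RAB14. They thus spanned both signs, and the paralogs RAB8A and RAB8B, which both hold these letters near their start, had unlike values. Read from the ATG inside the match, both RAB8 windows encode the same amino acids. Whether the shared letters are coding sequence was not tested. RAB23 and RAB43 had promoters in the table without a match, and RAB26 was not searched here. Over the array, 2.59% of 1044 kept genes with the motif were past 1.5-fold on the high side and 4.12% on the low side, against 3.01% and 3.66% of 6418 kept genes without it. A match describes letters in a window and does not show binding. The 6-base sequence CACGTG, bound by regulators of lysosome genes such as TFEB and shown for comparison, lay in 6 of the 50 RAB genes (12%), beside 8.77% of all genes in the table and 13.2% of kept genes with a promoter there. Counted by promoter, it lay in 8.45% of those of RAB genes and 7.26% of all. The 6 genes were RAB4A, RAB5A, RAB21, RAB24, RAB29 and RAB31, none of which held AANATGGC. Of the 4 kept among them, 0 were 1.5-fold higher and 0 lower. Of all 988 kept genes with CACGTG, 2.23% were higher by as much and 3.54% lower.

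RAB genes of recycling were all kept, 8 of 8. Of these, 4 were higher, beside 50.4% of all kept genes, and 4 lower, with a median of 0.02. Under a stricter filter, a mean of at least 10.83, which kept fewer of them, the median was 0.14. RAB35, which returns cargo quickly from endosomes to the surface and acts in cytokinesis, measured 11.08 in siControl and 11.52 in siYY1 (0.44). RAB14, which links the Golgi and endosomes, measured 12.63 and 13.07 (0.43). These were higher by 1.36-fold and 1.35-fold, and no other gene of the group passed 1.3-fold in either direction. Of all kept genes, 9.16% were past 1.3-fold on the high side and 10.4% on the low side.

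RAB11A and RAB11B control slow return through the recycling endosome, and RAB25 is their relative in epithelial cells. RAB11A measured 13.53 and 13.65 (0.12) and RAB11B 12.53 and 12.70 (0.16). RAB25 measured 12.93 and 12.65, and its difference of -0.28 was the lowest of the recycling group. RAB17, the other RAB of this group known for its epithelial expression, where it serves transcytosis, measured 10.70 and 10.59 (-0.11). RAB4A, the RAB of rapid recycling, and RAB15 differed by -0.09 and -0.08. RAB25 was the lowest of the group, though 1441 kept genes had a lower difference, and RAB17, RAB4A and RAB15 lay too close together to be put in order.

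In the group of RAB genes of early endosomes, 5 of 7 were kept. Of these, 3 were higher, beside 50.4% of all kept genes, and 2 lower, with a median of 0.07. None was past 1.3-fold, beside 9.16% of all kept genes on the high side and 10.4% on the low side. The RAB5 paralogs, which govern fusion of early endosomes, were measured at 14.14 and 14.00 for RAB5A (-0.14), 12.29 and 12.63 for RAB5B (0.33), and 13.98 and 14.05 for RAB5C (0.07). RAB5A and RAB5B thus marked the lowest and the highest difference of the group. RAB21, which takes part in integrin uptake, differed by -0.03 and RAB22A by 0.08. RAB20 and RAB31 were dim.

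RAB genes of late endosomes and lysosomes had 5 of 11 members kept. Of these, 4 were higher, beside 50.4% of all kept genes, and 1 lower, with a median of 0.09. None was past 1.3-fold, beside 9.16% of all kept genes on the high side and 10.4% on the low side. RAB7A, which directs fusion of late endosomes with lysosomes, measured 15.49 in siControl and 15.57 in siYY1 (0.08). RAB9A, which returns mannose 6-phosphate receptors to the Golgi, measured 8.39 and 8.24 (-0.15). RAB12, which sends transferrin receptor to degradation, had the highest difference of the kept members at 9.33 and 9.52 (0.18), followed by RAB36 (0.16) and RAB29 (0.09), a partner of the kinase LRRK2. The 6 dim members were RAB7B, RAB9B, RAB24, RAB32, RAB34 and RAB38, with differences from -0.17 in RAB38 to 0.37 in RAB9B. RAB32 and RAB38, which deliver enzymes to melanosomes, had no value above 5.12.

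In the group for the cilium and other roles, 4 of 8 members were kept. Beside RAB23, RAB28, which acts in cilia of photoreceptors, measured 9.53 and 9.54 (0.01). RAB40B and RAB40C, which carry a SOCS box and join ubiquitin ligases, differed by -0.03 and -0.24. RAB23 thus stood alone in the group. RAB40A and RAB40AL, whose genes are near-identical, were dim at 3.75 to 3.85, as were RAB42 and RAB44.

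Genes of proteins that switch, lipidate or read RAB proteins were compared in 5 lists. Of 40 kept exchange factor genes, 4 were past 1.5-fold on the high side (10.0%, beside 3.04% of all kept genes) and 1 on the low side (2.5%, beside 3.78%), with a median of 0.12. DENND1B, whose family activates RAB35, measured 8.79 and 9.80 (1.01, 2.01-fold), and its paralog DENND1A 8.85 and 9.12 (0.27). DENND6A, which activates RAB14, measured 11.51 and 12.27 (0.76). RAB35 and RAB14 themselves were the highest of the recycling group. These pairs were set side by side with the values known, and exchange factors were not compared with their RAB genes as a set. DENND6B, the paralog of DENND6A, lay on the other side at -0.48. Subunits of the TRAPP complexes, which activate RAB1 and RAB11, differed in sign, with TRAPPC12 at -0.88 and TRAPPC9 (0.65) and TRAPPC6B (0.59) past the threshold on the high side. RAB3IP, which activates RAB8, differed by 0.02, and its paralog RAB3IL1 measured 8.15 and 8.64 (0.50).

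Of 42 kept effector genes, 5 were past 1.5-fold on the high side (11.9%, beside 3.04% of all kept genes) and 0 on the low side (beside 3.78%), with a median of 0.13. OCRL, a lipid phosphatase bound by many RAB proteins, RAB8 and RAB35 among them, measured 9.72 and 10.70 (0.98, 1.97-fold). MICALL1, an effector of RAB8 and RAB35 on recycling tubules, differed by 0.60. OPTN, which binds RAB8, lay only just past the threshold of 0.585, at 0.5853. The others were the RAB11 effector RAB11FIP2 (0.63) and the Golgi tether GCC1 (0.69). The lowest were GOLGA4 (-0.52), a golgin, and RILP (-0.45), which couples RAB7 to dynein. MYO5B, the motor of RAB11 vesicles in epithelia, differed by -0.26.

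**Figure D4:**
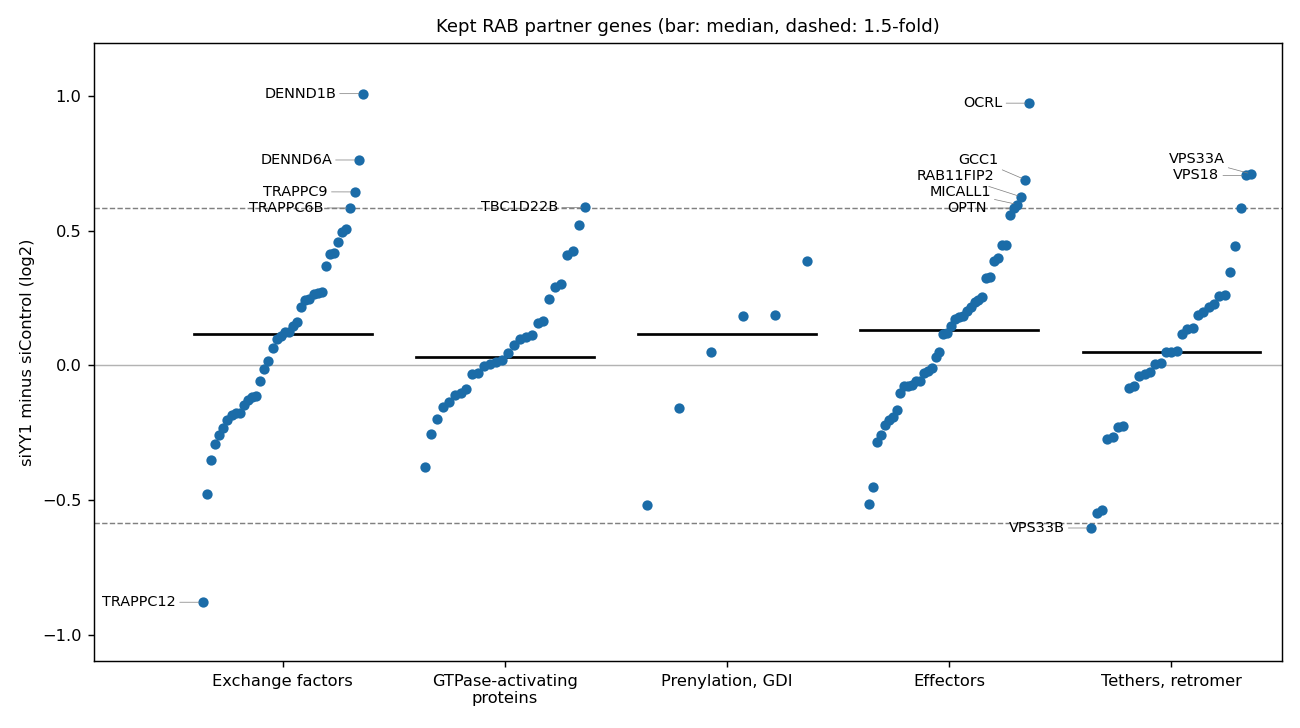
Difference of siYY1 minus siControl (log2) for the kept genes of each partner list, with a bar at the median and dashed lines at 1.5-fold. The medians lie between 0.03 and 0.13, DENND1B and OCRL are the highest points, and TRAPPC12 is the lowest.

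Among 31 kept tether and retromer genes, 2 were past 1.5-fold on the high side (6.45%, beside 3.04% of all kept genes) and 1 on the low side (3.23%, beside 3.78%), with a median of 0.05. VPS33A (0.71) and VPS18 (0.71) are core subunits of the HOPS tether that RAB7 and RAB2 recruit, and VPS33B (-0.60) is the paralog of VPS33A outside HOPS. The other kept HOPS subunits differed in sign, with VPS11 at 0.26, VPS41 at -0.27 and VPS39 at -0.22. COG4, with a siControl value of 7.29 under the filter value, lay just short of the threshold at 0.584. On the low side, SNX5 (-0.55) and COG1 (-0.54) also lay short of it. At 1.3-fold, 4 of the 31 were higher and 3 lower, beside 9.16% and 10.4% of all kept genes. The 28 kept GTPase-activating protein genes had a median of 0.03. TBC1D22B (0.59) was the only one past 1.5-fold on the high side (3.57%, beside 3.04% of all kept genes). None was past it on the low side, beside 3.78%, and TBC1D7 (-0.38) was the lowest. The list for prenylation and membrane extraction of RAB proteins also held RABAC1 (0.18), YIPF5 (0.05) and YIPF6, which fit neither role. Of its 9 genes, 6 were measured and all were kept. Of these 6, 4 were higher, beside 50.4% of all kept genes, and 2 lower, with a median of 0.12. None was past 1.5-fold, beside 3.04% and 3.78% of all kept genes. YIPF6 was the highest at 0.39 and CHML the lowest. CHML, an escort protein for prenylation, differed by -0.52, GDI2, which extracts RAB proteins from membranes, by -0.16, and RABGGTA, a subunit of the prenylating enzyme, by 0.19.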

How the data were processed

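Total RNA of SW48 cells was measured on 1 array per group, and the titles gave each sample's group. The authors deposited 1 value per probe set, read here as log2 values from their range. Their summarization, normalization and log base were not given in the sources used here. Folds take them as plain log2. Precision is limited by the number of arrays. Of 21448 probe sets, 17709 had 1 symbol in GEO's platform annotation. The other 3739, without a single symbol, were left out. All 17709 were matched by Entrez identifier to RefSeq (GRCh38.p14), which changed 0 symbols. Probe sets of a gene (20 genes with several, no RAB gene among them) were averaged.

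The filter kept genes whose mean of both arrays reached the median over named genes. The 1.5-fold rule and all shares were computed over the whole table, and the steps were tested on simulated data. No p-value was made. Members, role groups, lists and motifs were chosen with earlier results of these data known. RAB6D was added to its group after the array's symbols were read. Named were kept RAB genes past 1.5-fold, the extremes of each role group, paralogs, and from each partner list genes past 1.5-fold and up to 2 at each end. Named outside this rule, after their values were seen, were EPCAM, CDH1, VIL1, CDX1, LGALS4, DENND1A, RAB3IP, RAB3IL1, MYO5B, VPS11, VPS41, VPS39 and COG4. The same holds for COG1, RABAC1, YIPF5 and single RAB genes within groups. Alternatives were no filter, a stricter filter, quantile normalization, median and lowess centring (fraction 0.3), the brightest probe set and folds of 1.3 and 2. Python 3.11.15, numpy 2.4.6, pandas 2.3.3, statsmodels 0.14.6 and matplotlib 3.10.9 were used.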

Additional observations from a re-analysis of the deposited data

How the results depend on the processing

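The reported counts were 3 of 42 kept RAB genes at least 1.5-fold higher and 0 lower. The higher count was 7 at 1.3-fold, beside 9.16% of all kept genes. It was 0 at 2-fold, where the share of all kept genes was not computed. The stricter filter, which RAB26, RAB23 and RAB43 did not pass, left 24 RAB genes. Of these, 0 were higher, beside 1.97% of all 4422 genes that passed it, and 0 lower, beside 2.65%. The lower count was 1 at 1.3-fold (RAB8B), beside 10.4% of all kept genes. It was 1 with no filter (RAB3C), beside 3.9% of all named genes. It was also 1 with median centring, which took RAB8B past the threshold. The brightest probe set, quantile normalization and lowess centring left both counts at 3 and 0, as did leaving out RAB6C and RAB6D, an alternative chosen after seeing the data. The median over kept RAB genes and the role medians shifted by at most 0.12, which was the shift of the recycling group, from 0.02 to 0.14, under the stricter filter. The largest shift of a kept RAB gene was 0.043, that of RAB26 under quantile normalization. Under the same setting 2 genes with differences near 0, RAB3A and RAB10, changed sign. The median of the cilium group changed sign under quantile normalization (0.02) and lowess centring (0.01). The stricter filter left no gene of the cilium group and so gave no value for it. No paired analysis was possible because each group has 1 array. For the same reason no replicate could be left out. The partner lists were not recounted under the stricter filter, quantile normalization, either centring or the brightest probe set.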
